A study of Drosophila melanogaster with 27 samples.

Results

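The odorant-binding proteins (Obp) of Drosophila melanogaster were followed through 27 Affymetrix arrays of RNA from adult fly heads. Members were the genes whose symbol begins with Obp and a number in the array annotation, taken from probe sets that name 1 gene only. This gave 47 genes out of 11982 named on the array, from 50 probe sets; for the 3 genes with a second probe set, the one with the higher mean over all arrays was used. Another 4 probe sets name an Obp gene together with another gene (Obp57d with Cpr57A, Obp50b with Obp50c) and were left out. The gene lush, which also encodes an odorant-binding protein, falls outside the rule because of its symbol and is given below among antennal genes.

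Odorant-binding proteins are small secreted proteins, many of which fill the fluid around the dendrites of olfactory and taste neurons, where they bind odorants and pheromones. Support cells of the sensillum, rather than the neurons, make them. Several members are made elsewhere: in glia, in the fat body of the head, or in the male reproductive tract, where they enter the seminal fluid. Lush, the best known protein of the family, is needed for the response of antennal trichoid sensilla to the male pheromone cis-vaccenyl acetate.

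Each array carried either RNA that came down with AGO1, the Argonaute protein of the fly microRNA pathway, in an immunoprecipitation (IP), or RNA of the head extract it started from (INPUT). Tim-Dcr heads gave 1 IP and 1 INPUT array at each of ZT3 and ZT15, 4 in all, where ZT counts hours after lights on. Wild-type heads gave 12 IP and 11 INPUT arrays at 6 times, 4 h apart, with a pair of arrays everywhere but at ZT3 in INPUT, where there was 1. All flies were adults kept in 12 h of light and 12 h of dark; the sources used here give no strain, sex or age in days, and the labels do not say what alleles or transgenes the name Tim-Dcr stands for. No IP with a control antibody was analysed here, and IP values are uncorrected for RNA that sticks without AGO1.

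Values are log2 expression values as deposited, and 1 unit is a doubling. Array medians lay at 4.34 to 4.54 in Tim-Dcr IP and 4.77 to 4.90 in wild-type IP, and at 5.66 to 5.93 in Tim-Dcr INPUT and 6.11 to 6.19 in wild-type INPUT. The most frequent value of an array, near which probe sets with little specific signal lie, was 2.95 in Tim-Dcr IP and 2.45 to 2.65 in wild-type IP, and 3.85 to 4.05 in Tim-Dcr INPUT and 3.65 to 3.85 in wild-type INPUT. The 4 kinds of array therefore differ in scale. Of the 47 members, 37 passed a filter on low values (log2 above 4 in at least 3 arrays) for the wild-type tests and 39 passed it once Tim-Dcr arrays were included. The 10 members not tested in wild type averaged 3.47 to 3.93 in wild-type INPUT, close to the most frequent array value. Of these, Obp56c and Obp58b passed the filter only with the Tim-Dcr arrays.

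Wild-type INPUT means of the family ran from 3.47 (Obp57e) to 13.13 (Obp56d), while single values on the arrays ran from 1.77 to 14.6. Mean INPUT values were 10 or more for 7 members: Obp56d, Obp44a, Obp99c, Obp19d, Obp56g, Obp18a and Obp56e. These were 14.9% of the members, while 7.46% of all probe sets lay that high. Another 8 members lay between 8 and 10 (17.0%, against 20.3% of all probe sets) and 6 between 6 and 8 (12.8% against 23.8%). Lower down, 9 lay between 4.5 and 6 (19.1% against 16.8%) and 17 below 4.5 (36.2% against 31.6%). Probe sets hybridise with different strength, so these bands group array values and do not rank the genes by number of RNA molecules. As a whole-head RNA measure they cannot tell fewer cells that make a transcript from less transcript per cell.

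The 12 members with the highest INPUT means include genes of different known sites. Obp56d had 12.81 as its lowest, 13.18 as its median and 13.29 as its highest wild-type INPUT value. Obp44a, known from glia of the fly brain, had 12.42, 12.77 and 12.99. Obp99c had 11.92, 12.14 and 12.52. The standard deviations of these 3 genes over the 11 arrays, 0.17, 0.16 and 0.19, were near the median of 0.18 over all probe sets tested. Obp19d, a protein of taste and antennal sensilla also called PBPRP2, had 11.77, 12.03 and 12.43. Obp56g and Obp56e, both known from seminal fluid, had medians of 11.31 and 10.65, and Obp18a had a median of 10.93. Obp51a, another seminal fluid protein, had 9.40, 9.93 and 10.24.

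The other 4 of the 12 were Obp57c, Obp99b, Obp99a and Obp57b. Obp99b, known as turn on sex-specific and as a male-biased transcript of the head fat body, had 8.44, 9.56 and 10.20, with the largest standard deviation of the 12 (0.51, n = 11). Obp57c had a median of 9.66, Obp99a 8.79 and Obp57b 8.47, each within a range of under 1 unit over the 11 arrays.

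Some members known from olfactory sensilla, unlike Obp19d, fell in the bands below 6 in these whole-head samples. Obp83b, also called OS-E and made in trichoid sensilla with its neighbour Obp83a, had a median of 5.66 in wild-type INPUT. Obp28a, an abundant antennal protein, had a median of 5.60, Obp69a, involved in social responses to cis-vaccenyl acetate, 5.49, and Obp19a 4.78. Obp84a, at a median of 3.56, was below the range of the most frequent array value. So was Obp57e, at 3.45, given here as the member with the lowest mean and not for a site in olfactory sensilla. Obp59a, which hygroreception requires, had a median of 4.34. Obp49a, a taste protein through which bitter compounds suppress the response to sugar, had 7.83, 8.68 and 8.84.

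**Figure D1:**
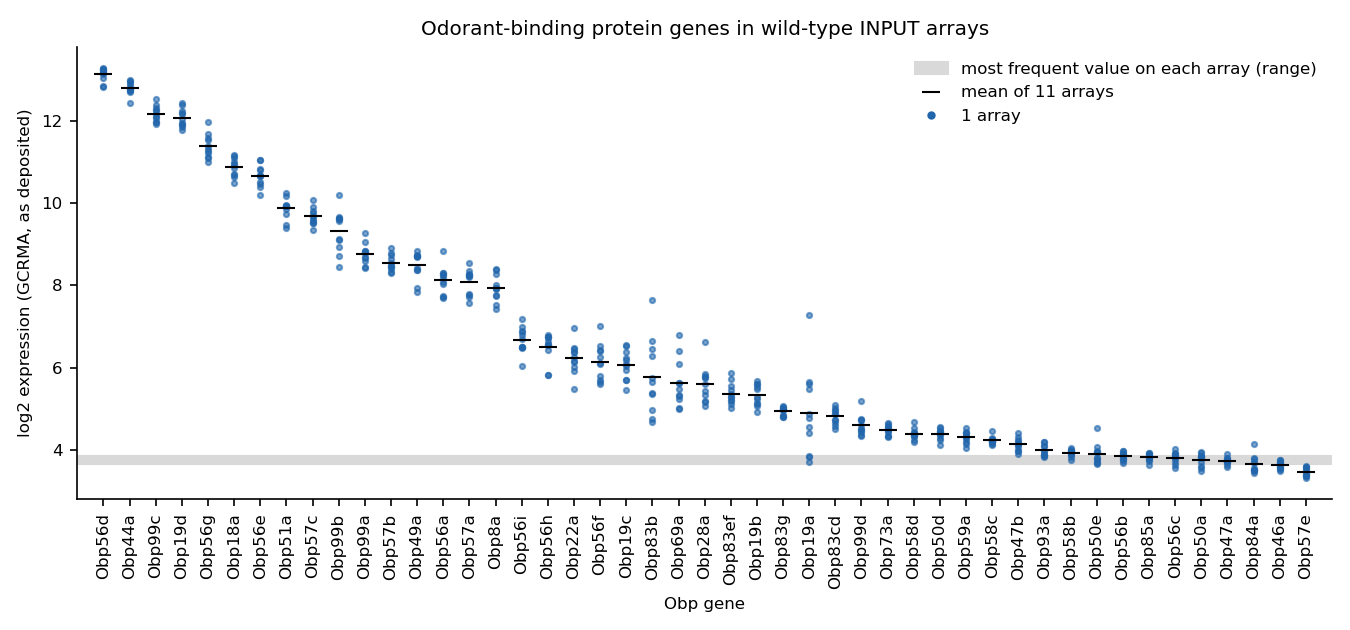
Log2 INPUT value (vertical axis) of each of the 47 Obp genes (horizontal axis, by mean) on the 11 wild-type arrays; points are arrays, dashes are means and the grey band is the range of the most frequent array value. A first group of 7 genes lies at 10 or more and 17 lie below 4.5, while Obp83b and Obp19a spread most between arrays.

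Genes that are neighbours in the genome fell into different bands. Of the 47 members, 26 lie on chromosome arm 2R, 11 on 3R, 6 on X, 2 on 2L and 2 on 3L, and 26 have another Obp gene as a direct neighbour among annotated genes (RefSeq, Release 6 plus ISO1 MT). Obp56d, with an INPUT mean of 13.13, lies between Obp56c at 3.81 and Obp56e at 10.66. Obp19d, at 12.07, lies beside Obp19c at 6.07, and Obp19a and Obp19b at the other end of that run averaged 4.91 and 5.33. The run of Obp58b, Obp58c, Obp58d and Obp59a was in the lowest band throughout, with INPUT means between 3.93 and 4.39.

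Time of day was tested with a 24 h cosine curve over the 6 wild-type times, with limma and Benjamini-Hochberg adjustment over all 15517 probe sets tested. In IP, 0 of 37 members passed an adjusted p of 0.05, against 0.876% of all probe sets, and in INPUT 0 of 37 passed, against 0.477%. At an unadjusted p under 0.05 there were 6 members in IP and 4 in INPUT, while 5.88% and 6.24% of all probe sets reached that in IP and in INPUT. A test of whether the IP rhythm differed from the INPUT rhythm passed for 0 members (0.0129% of probe sets). It reached an unadjusted p under 0.05 for 2 of 37, against 1.38% of probe sets. No other setting gave a rhythmic member in INPUT, and 1 gave a member in IP: Obp99d passed without wild-type IP ZT3 replicate 1.

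The fitted peak-to-trough difference in INPUT had a median of 0.31 over the 37 members and of 0.20 over all probe sets. For the 12 highest members it lay between 0.16 and 0.58 in INPUT and between 0.08 and 0.70 in IP. The smallest adjusted p of any member was 0.304 in IP (Obp99d, limma) and 0.618 in INPUT (Obp8a, limma). Obp8a, known from seminal fluid, had mean INPUT values of 8.36 at ZT3, 7.84 at ZT7, 7.64 at ZT11, 7.71 at ZT15, 7.93 at ZT19 and 8.32 at ZT23. Obp99a had 8.43, 8.73, 8.98, 8.94, 8.81 and 8.50 at the same times. Both curves are smooth in the means, yet neither passed the test at this number of arrays (adjusted p = 0.618 and 0.780, limma).

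The members that varied most over the arrays did so both between times and between replicates. The standard deviation over the 11 wild-type INPUT arrays was 1.05 for Obp19a, 0.91 for Obp83b, 0.57 for Obp69a, 0.51 for Obp99b and 0.44 for Obp28a, against a median of 0.18 over all probe sets tested. Obp19a had the largest fitted daily range of the family in INPUT, 1.27 (SE 0.53), with an adjusted p of 0.872 in limma. Its INPUT values were 4.40 at ZT3, 4.78 and 5.65 at ZT7, 5.48 and 7.27 at ZT11, 3.70 and 3.83 at ZT15, 4.86 and 5.61 at ZT19, and 4.56 and 3.86 at ZT23. Its time means were highest at ZT11, at 6.37, and lowest at ZT15, at 3.76, a range of 2.61. The 2 replicates of a time differed by 0.75 in the median and by 1.79 at most, at ZT11. The time means of Obp83b spanned 2.25 in INPUT, with a median replicate gap of 0.71, and its fitted daily range of 0.91 (SE 0.48) did not pass by limma. A second probe set for Obp19a had a smaller standard deviation, 0.59, around a similar mean of 4.80.

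Obp83b showed the same arrays as high and low. Its INPUT values were 5.38 at ZT3, 5.37 and 6.64 at ZT7, 6.27 and 7.65 at ZT11, 4.74 and 4.67 at ZT15, 5.74 and 6.45 at ZT19, and 5.66 and 4.96 at ZT23. ZT11 replicate 2 held the highest value of Obp83b, Obp19a, Obp69a and Obp28a in both fractions: 6.10, 6.21, 5.65 and 4.99 in IP, and 7.65, 7.27, 6.79 and 6.63 in INPUT. The antennal genes lush, Os-C and a10 were also highest on that array in both fractions, at 4.40, 3.78 and 4.74 in IP and 5.72, 5.997 and 6.36 in INPUT. Os-C and a10 encode other proteins of the antenna.

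Across arrays these 4 members moved with the mean of lush, Os-C and a10. Those genes belong to a list of 8 perireceptor and antennal accessory genes on the array. Of the rest of that list, only Jhedup, given below, was compared with this mean. Over the 12 wild-type IP arrays Pearson's r was 0.92 for Obp83b (Spearman's rho 0.92), 0.88 for Obp19a (rho 0.91), 0.77 for Obp28a (rho 0.70) and 0.65 for Obp69a (rho 0.45). Over the 11 wild-type INPUT arrays r was 0.95 for Obp83b (rho 0.92), 0.94 for Obp19a (rho 0.91), 0.94 for Obp28a (rho 0.89) and 0.85 for Obp69a (rho 0.79). Without the 2 arrays farthest from the median of the antennal mean, r was 0.91, 0.78, 0.49 and 0.48 in IP and 0.90, 0.84, 0.80 and 0.71 in INPUT, in the same gene order. The antennal genes were picked after their values were seen and 37 members were compared with them in each fraction, so the correlations are a description and carry no test. IP and INPUT arrays of 1 number were taken as pairs and are not independent.

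Abundant members did not share this pattern. For Obp99c r was 0.01 in IP and 0.03 in INPUT, and for Obp56d it was -0.13 in IP and 0.11 in INPUT. Orco, the co-receptor of olfactory receptors, which the neurons rather than the support cells make, had r of -0.11 in IP and -0.22 in INPUT. Its wild-type values lay low and varied little, with medians of 3.39 in IP and 4.74 in INPUT and a standard deviation of 0.19 in each. The r of Orco therefore cannot tell whether genes of the neurons followed the antennal mean. Snmp1, a membrane protein needed for pheromone detection, had r of 0.22 in IP and 0.65 in INPUT, and Ir75a, an acid-sensing receptor, had 0.50 in IP and 0.22 in INPUT. Jhedup, counted here among antennal accessory genes, did follow the antennal mean in INPUT, with r of 0.94, and of 0.84 without the 2 farthest arrays. In IP its r was 0.605, and its IP median of 2.64 lay at the low end of the array. Obp59a had -0.09 in IP and 0.76 in INPUT, where r was 0.56 without the 2 farthest arrays. The part of antennal tissue in each head sample was not tested.

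**Figure D2:**
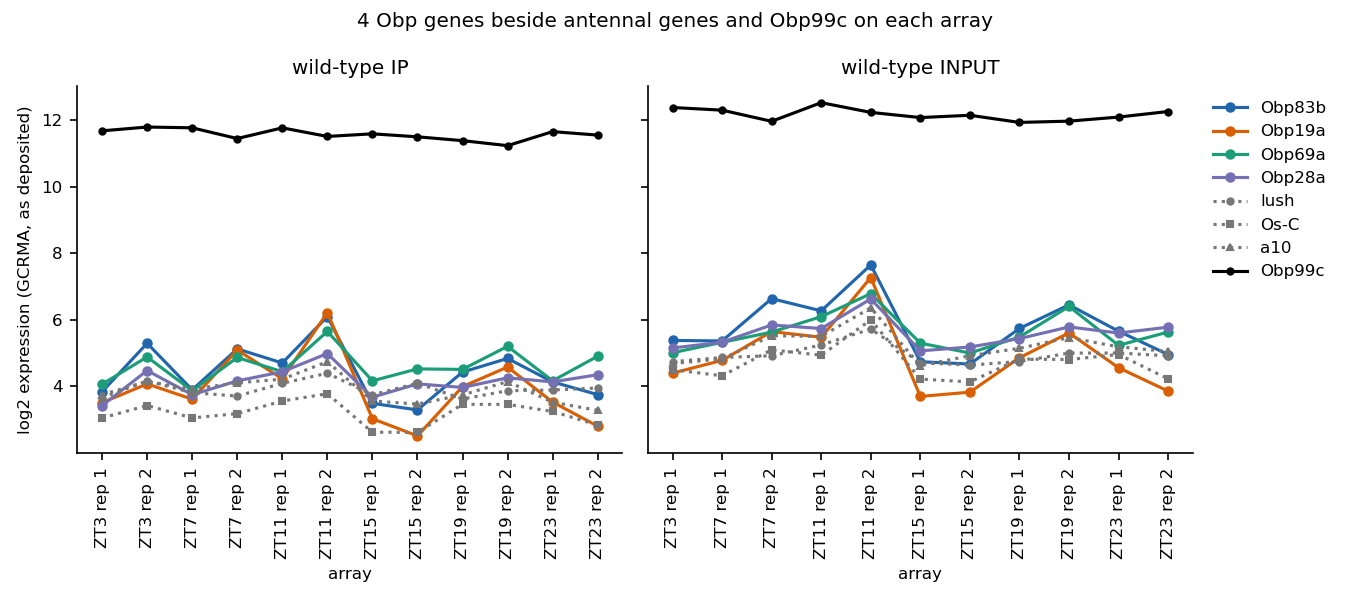
Log2 values (vertical axis) of Obp83b, Obp19a, Obp69a and Obp28a (coloured), of lush, Os-C and a10 (grey) and of Obp99c (black) on each wild-type IP and INPUT array (horizontal axis, by time and replicate); lines join the values of 1 gene and are no time course. All coloured and grey genes peak on ZT11 replicate 2 in both panels, where Obp83b reaches 6.10 in IP and 7.65 in INPUT, while Obp99c stays nearly level.

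IP minus INPUT was compared in wild type after centring each array on the median of the probe sets tested, because the IP arrays lie lower throughout: as deposited, the median probe set was 1.31 lower in IP. A positive value therefore means higher in IP than the median transcript is. By this measure 6 of 37 members were higher in IP, against 26.3% of all probe sets, and 8 were lower, against 33.2%. The remaining 23 did not pass and ranged from -0.32 to 0.33. The members' median was -0.07, and that of all probe sets was -0.04. With IP and INPUT arrays of the same number taken as pairs, 10 members were higher (29.2% of probe sets) and 14 lower (38.1%).

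Obp56h, whose knockdown alters courtship and mating, stood highest. Its wild-type IP values had 5.82 as the lowest, 6.58 as the median and 7.10 as the highest, and its INPUT values had 5.81, 6.58 and 6.78. The 2 fractions overlap as deposited, although 93.1% of probe sets were lower in IP on that scale. Relative to the array median it was 1.24 higher in IP (SE 0.14, adjusted p = 6.6e-07, limma). Its direct neighbour Obp56g went the other way, with 8.66, 8.999 and 9.93 in IP and 11.002, 11.31 and 11.97 in INPUT. The fractions did not overlap, and the centred difference was -0.95 (SE 0.14, adjusted p = 1.8e-05, limma).

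The other members higher in IP were Obp99c (0.65, SE 0.07), Obp49a (0.52, SE 0.15), Obp44a (0.37, SE 0.09), Obp83ef (0.30, SE 0.11) and Obp58c (0.18, SE 0.06). Obp99c had 11.23, 11.56 and 11.79 in IP and 11.92, 12.14 and 12.52 in INPUT, so its ranges did not overlap, and its IP values were lower as deposited, by less than those of the median probe set. As deposited, all 6 had negative differences, from -0.025 for Obp56h to -1.09 for Obp58c, and 0 members were called higher (3.63% of probe sets) and 36 lower (93.1%). Obp58c and Obp83ef had INPUT means of 4.23 and 5.37, close to the low end of the array, where the median centred difference of all probe sets was 0.01 below 4.5 and -0.05 between 4.5 and 6.

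Obp56e was lowest, at -1.11 (SE 0.10, adjusted p = 3.4e-08, limma). Its IP values had 7.67, 8.22 and 8.85 as the lowest, median and highest and its INPUT values 10.18, 10.65 and 11.05, with no overlap. Obp57c followed at -0.87 (SE 0.15), Obp99a at -0.67 (SE 0.09), Obp99b at -0.53 (SE 0.20), Obp56a at -0.44 (SE 0.11), Obp57a at -0.32 (SE 0.13) and Obp57b at -0.22 (SE 0.07). All 3 tested genes of the adjacent run Obp57a, Obp57b and Obp57c were thus lower in IP. The median over all probe sets was -0.17 for INPUT means of 8 to 10 and -0.22 for 10 or more, and all 8 of these genes lie in those bands. The calls of Obp57a, Obp99b and Obp83ef were lost in 12, 10 and 9 of the 23 fits that left out 1 array.

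Several of the 12 members of highest level did not pass. Obp56d was at 0.07, Obp19d at -0.13, Obp18a at -0.10 and Obp51a at -0.08. Of 24 measured genes of seminal fluid and male tract, 2 were higher and 9 lower in IP. Of 19 tested olfactory receptor genes, 1 was higher and 3 lower. Of 7 perireceptor and antennal accessory genes, 1 was higher and 2 lower, and of 8 tested taste receptors and pheromone channels, 0 were higher and 0 lower.

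**Figure D3:**
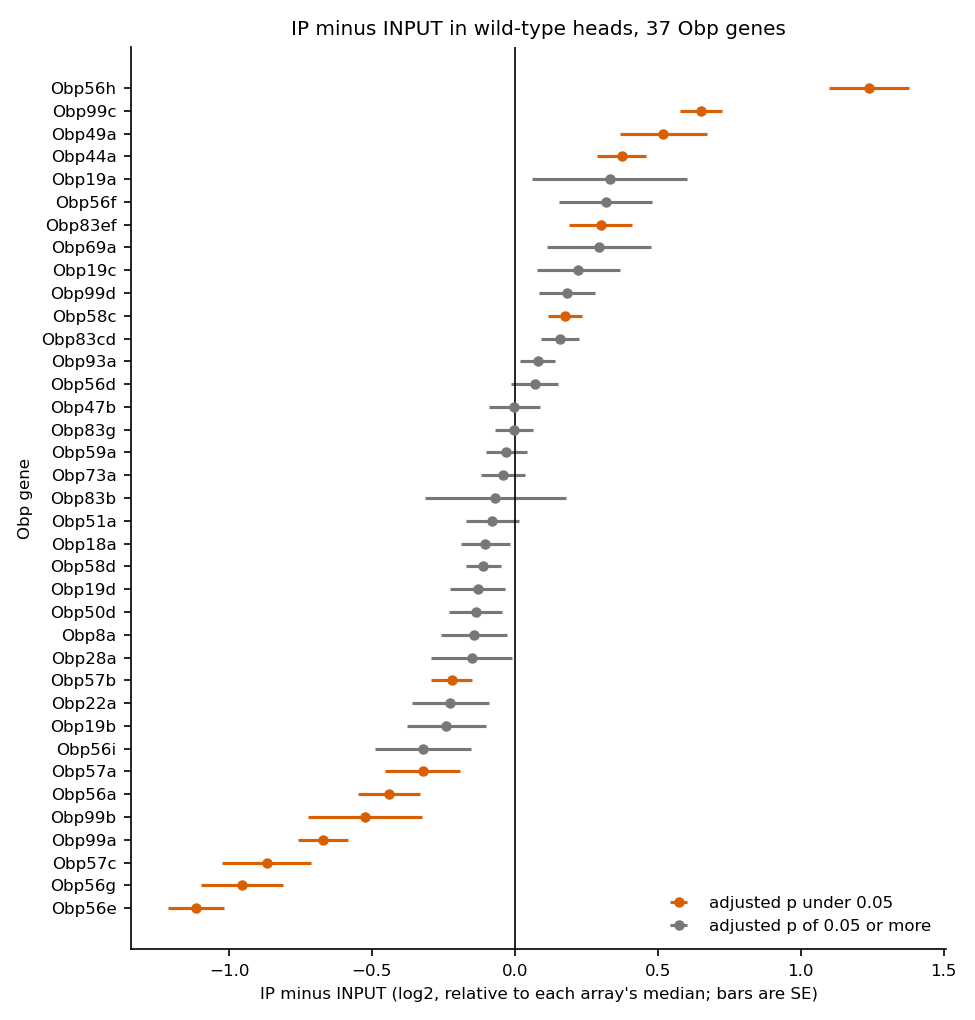
IP minus INPUT in wild-type heads (horizontal axis, log2 relative to each array's median, with SE) for the 37 Obp genes tested (vertical axis); orange points passed an adjusted p of 0.05. Obp56h stands apart at 1.24 and its neighbour Obp56g lies at -0.95, and 23 genes in grey did not pass.

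Tim-Dcr heads were compared with wild-type heads at ZT3 and ZT15 as deposited, with 1 offset per fraction over both times. In Tim-Dcr IP, 16 of 39 tested members were higher than in wild-type IP, against 27% of probe sets, and 6 were lower, against 17%. In Tim-Dcr INPUT, 14 members were higher than in wild-type INPUT, against 32.3%, and 6 were lower, against 17%. The members' median difference was 0.37 in IP and 0.33 in INPUT, and that of all probe sets was 0.17 in IP and 0.23 in INPUT. With 1 Tim-Dcr array per fraction and time, the spread comes almost wholly from the wild-type arrays, and genotype cannot be told apart from any other difference between the Tim-Dcr samples and the rest. The titles do not say whether Tim-Dcr IP and INPUT arrays came from the same heads, so the IP and INPUT comparisons are not taken as independent.

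The 2 largest differences in both fractions were decreases of Obp51a and Obp56i, both known from seminal fluid. Obp51a had 5.27 (ZT3) and 2.99 (ZT15) in Tim-Dcr IP, against a lowest, median and highest of 7.90, 8.58 and 9.01 in wild-type IP. It had 4.86 (ZT3) and 3.80 (ZT15) in Tim-Dcr INPUT, against 9.40, 9.93 and 10.24 in wild-type INPUT. The genotypes were far from overlapping, and the ZT15 values lay at the low end of the array, where the most frequent value was 2.95 in Tim-Dcr IP and 4.05 in Tim-Dcr INPUT. The ZT15 differences are therefore only lower bounds in size. Over both times the fitted difference was -4.16 in IP (SE 0.36, adjusted p = 1.0e-06, limma) and -5.60 in INPUT (SE 0.39, adjusted p = 1.1e-07, limma).

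Obp56i had 3.22 and 2.47 in Tim-Dcr IP, against 4.04, 5.15 and 5.74 in wild-type IP. It had 4.08 and 3.91 in Tim-Dcr INPUT, against 6.04, 6.71 and 7.18 in wild-type INPUT. Neither fraction overlapped, and the differences were -2.15 (SE 0.37) in IP and -2.70 (SE 0.39) in INPUT. Its Tim-Dcr values lay within 0.5 of the most frequent value of their array, so both differences are lower bounds in size. Obp22a fell by 1.16 (SE 0.30) in IP and by 1.94 (SE 0.32) in INPUT, with Tim-Dcr values of 3.07 and 3.19 in IP and 4.01 and 3.96 in INPUT that lay as low and give bounds too. Obp56f fell by 1.5 (SE 0.33) in IP and by 1.08 (SE 0.35) in INPUT, with a Tim-Dcr IP value at ZT3, 3.16, that was also near the low end. Each of these 4 genes had its Tim-Dcr arrays below every wild-type array in both fractions.

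Obp56g, which is needed for the mating plug, was lower past the test in INPUT only, and its change of IP minus INPUT did not pass. Its Tim-Dcr IP values were 10.05 at ZT3 and 7.22 at ZT15, on either side of the wild-type IP range of 8.66 to 9.93. Its Tim-Dcr INPUT values were 9.65 and 10.09, both below the wild-type INPUT range of 11.002 to 11.97. It fell by 1.30 (SE 0.42) in INPUT, while the IP difference of -0.45 did not pass. Obp56e and Obp8a, which are also known from seminal fluid, were not lower. Obp56e had 9.28 and 9.20 in Tim-Dcr IP, against 7.67, 8.22 and 8.85 in wild-type IP, and 11.28 and 11.47 in Tim-Dcr INPUT, against 10.18, 10.65 and 11.05 in wild-type INPUT. It was higher in Tim-Dcr by 0.88 (SE 0.19) in IP and 0.69 (SE 0.20) in INPUT, and Obp8a was higher by 0.63 (SE 0.23) in IP and did not pass in INPUT, at 0.60.

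Of the 7 members known from seminal fluid (Obp8a, Obp22a, Obp51a, Obp56e, Obp56f, Obp56g and Obp56i), 4 were lower and 2 higher in Tim-Dcr IP, and 5 were lower and 1 higher in Tim-Dcr INPUT. The grouping was made after their values were seen and gets no test. Genes of seminal fluid and the male tract outside the family were lower with them: 22 of 24 in Tim-Dcr IP, with a median of -3.16, and 23 of 24 in Tim-Dcr INPUT, with a median of -3.67. Their summed level was 8.23 to 9.24 in Tim-Dcr IP and 12.3 to 14.1 in wild-type IP, and 9.25 to 11.2 in Tim-Dcr INPUT and 14.8 to 15.4 in wild-type INPUT. Among them, Acp98AB differed by -6.75, Dup99B by -6.54, EbpII by -6.53 and SP, the sex peptide, by -6.52 in INPUT. The part of male tract tissue or of the sex of the flies in the Obp differences was not tested.

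**Figure D4:**
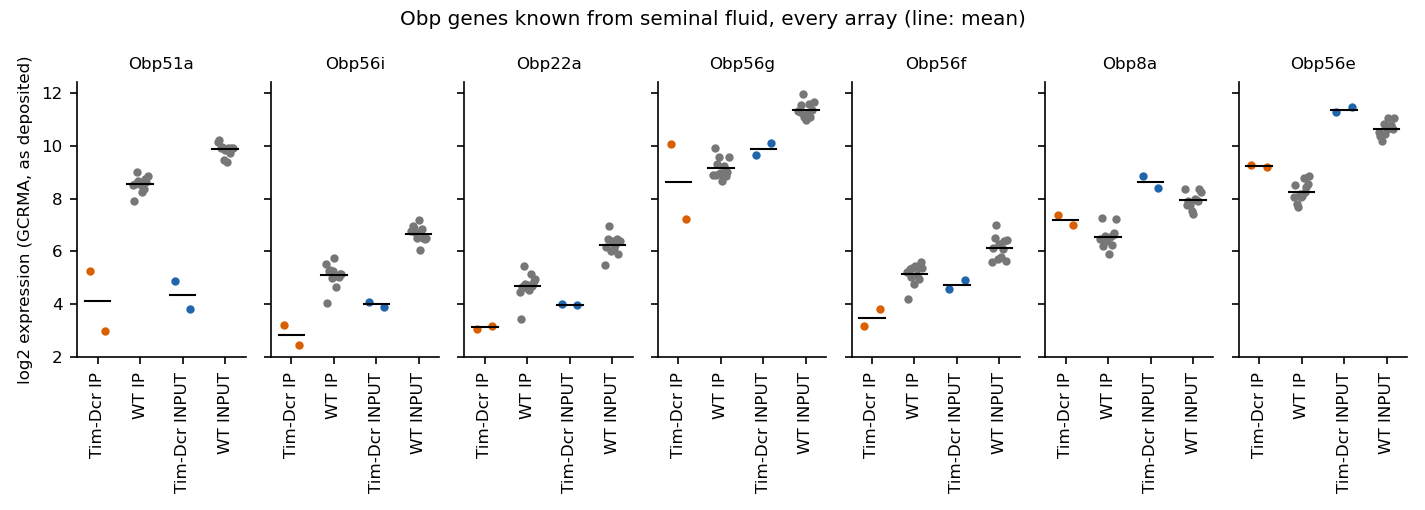
Log2 values (vertical axis) of the 7 Obp genes known from seminal fluid on every array, by genotype and fraction (horizontal axis), with the mean as a line. Obp51a, Obp56i, Obp22a and Obp56f lie below every wild-type array in both Tim-Dcr fractions, the 2 Tim-Dcr IP arrays of Obp56g lie at 10.05 and 7.22, and Obp56e lies above every wild-type array of the same fraction.

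Obp56a was the fifth member lower in both fractions, and it is not among the 7. It had 3.79 and 4.95 in Tim-Dcr IP, against 5.87, 6.37 and 6.94 in wild-type IP, and 5.89 and 6.55 in Tim-Dcr INPUT, against 7.69, 8.16 and 8.84 in wild-type INPUT. No Tim-Dcr array reached the wild-type range. The differences were -1.86 (SE 0.22, adjusted p = 1.3e-05, limma) in IP and -1.75 (SE 0.24, adjusted p = 1.9e-05, limma) in INPUT. The 5 genes lower in both fractions were 83.3% of each list of 6, while 13.4% of all probe sets were lower in both, 79.1% of the IP list and 79.2% of the INPUT list. Obp69a fell by 1.02 (SE 0.38) in IP and did not pass in INPUT, at -0.19.

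Among members higher in Tim-Dcr, Obp57b, Obp99a and Obp19c had the largest differences in INPUT, and Obp99a, Obp19c and Obp28a in IP. Obp99a had 7.60 (ZT3) and 9.09 (ZT15) in Tim-Dcr IP, against 6.003, 6.91 and 7.30 in wild-type IP. It had 9.46 and 10.90 in Tim-Dcr INPUT, against 8.41, 8.79 and 9.26 in wild-type INPUT. All Tim-Dcr arrays were above all wild-type arrays, with differences of 1.77 (SE 0.23) in IP and 1.56 (SE 0.25) in INPUT.

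Obp57b had 8.14 and 8.28 in Tim-Dcr IP, against 6.57, 7.09 and 7.33 in wild-type IP, and 9.996 and 10.15 in Tim-Dcr INPUT, against 8.30, 8.47 and 8.90 in wild-type INPUT. It did not overlap in either fraction and was higher by 1.07 (SE 0.13) in IP and 1.57 (SE 0.14, adjusted p = 9.0e-07, limma) in INPUT. Its neighbour Obp57a was higher in INPUT by 0.92 (SE 0.30), and in IP it did not pass. Obp19c had 6.61 and 6.81 in Tim-Dcr IP, against 4.33, 4.91 and 5.80 in wild-type IP, and 7.74 and 7.65 in Tim-Dcr INPUT, against 5.46, 6.09 and 6.55 in wild-type INPUT. It was higher by 1.49 (SE 0.29) in IP and 1.54 (SE 0.31) in INPUT. A second Obp19c probe set showed no such gap, with INPUT means of 3.63 in Tim-Dcr and 3.59 in wild type, both near the most frequent array value.

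Other members higher in both fractions had smaller differences in INPUT. Obp28a was higher by 1.14 (SE 0.30) in IP and 0.92 (SE 0.32) in INPUT, although its Tim-Dcr values, 4.68 and 5.44 in IP and 5.81 and 6.24 in INPUT, overlapped wild type. Obp44a, the glial member, was higher by 0.52 (SE 0.17) in IP and 0.66 (SE 0.18) in INPUT. Its Tim-Dcr values of 12.33 and 12.55 in IP and 13.31 and 13.35 in INPUT lay above every wild-type array. Of 7 glial marker genes, 3 were higher and 0 lower in Tim-Dcr IP, where 27% of all probe sets were higher. In Tim-Dcr INPUT 5 were higher and 0 lower, where 32.3% of all probe sets were higher. The part of glia in the Obp44a difference was not tested. Obp83cd was higher by 0.74 (SE 0.15) in IP and 0.95 (SE 0.16) in INPUT, and its neighbour Obp83ef passed in INPUT, at 0.99 (SE 0.27), and not in IP.

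The members with a wild-type INPUT mean under 4.5 need the low end of the array beside them. Of those higher in Tim-Dcr, 7 in IP (Obp47b, Obp56c, Obp58c, Obp58d, Obp59a, Obp73a and Obp93a) and 4 in INPUT (Obp58c, Obp58d, Obp59a and Obp73a) were of this kind. Their differences were 0.32 to 0.59 in IP and 0.38 to 0.66 in INPUT. The median difference of all probe sets in that band was 0.31 in IP and 0.22 in INPUT. Obp56c passed the filter only through its Tim-Dcr INPUT values, 4.11 and 4.15. Its Tim-Dcr IP values were 3.03 and 2.97, so its call among the 16 in IP is no support for a difference. In all, 11 members were higher in both fractions, 68.8% of the 16 in IP and 78.6% of the 14 in INPUT. Of all probe sets 15% were higher in both, which is 55.5% of the IP list and 46.3% of the INPUT list. Of the other members higher in 1 fraction, Obp19b passed in INPUT (0.87, SE 0.31), and Obp19d passed in IP (0.52, SE 0.18).

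**Figure D5:**
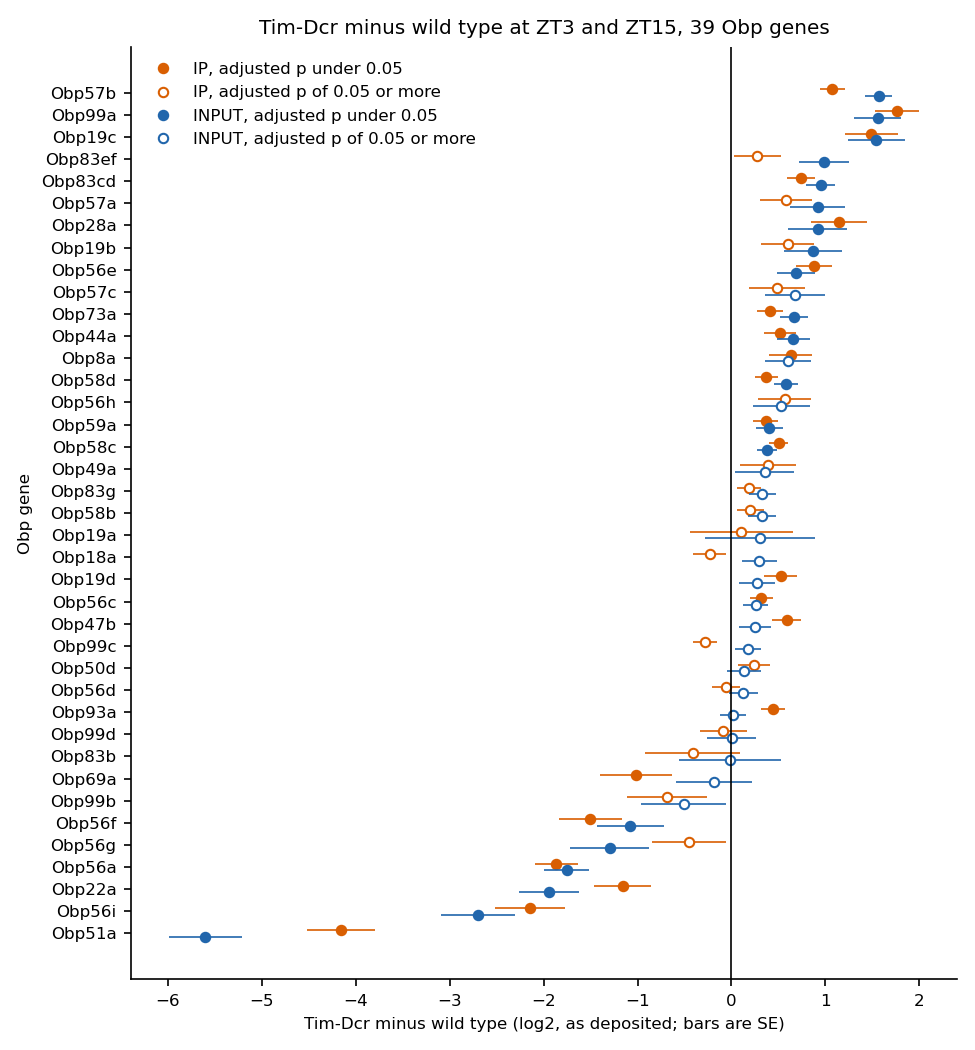
Tim-Dcr minus wild type at ZT3 and ZT15 (horizontal axis, log2 as deposited, with SE) for the 39 Obp genes tested (vertical axis), in IP (orange) and INPUT (blue); filled points passed an adjusted p of 0.05. Obp51a lies at -4.16 in IP and -5.60 in INPUT, 6 genes are called lower in each fraction, and Obp57b, Obp99a and Obp19c lie highest in INPUT.

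Among the 12 members of highest level, 6 passed in each fraction, while 44.0% of all probe sets passed in IP and 49.3% in INPUT in either direction. Obp56d, Obp99c, Obp18a, Obp57c and Obp99b passed in neither, and Obp99b, the male-biased fat body transcript, had 6.41 and 7.34 in Tim-Dcr IP, against 7.002, 7.54 and 8.28 in wild-type IP, and 8.74 and 9.08 in Tim-Dcr INPUT, against 8.44, 9.56 and 10.20 in wild-type INPUT. Its ranges overlapped in both fractions, and its differences were -0.69 in IP and -0.51 in INPUT. Obp83b overlapped wild type as well, at -0.41 in IP and -0.02 in INPUT. Genotypes that did not overlap were common on these arrays, with 20 members and 43.9% of probe sets in IP and 22 members and 54.2% of probe sets in INPUT.

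Other gene lists gave a setting for these counts. Of all probe sets, 27% were higher and 17% lower in IP, and 32.3% were higher and 17% lower in INPUT. In Tim-Dcr IP 5 of 11 fat body genes were higher and 2 lower, and in INPUT 6 were higher and 0 lower. Of 20 olfactory receptor genes, 5 were higher and 1 lower in IP, and 3 were higher and 0 lower in INPUT. Perireceptor and antennal accessory genes gave 1 of 7 higher in IP and 3 of 7 in INPUT, with 0 lower in both. Taste receptors and pheromone channels gave 3 of 10 higher and 0 lower in IP, and 2 higher and 1 lower in INPUT. Photoreceptor and eye genes gave 4 of 9 higher and 1 lower in IP, and 3 higher and 0 lower in INPUT, and neuronal genes gave 4 of 7 higher and 0 lower in each fraction.

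Leaving out the Tim-Dcr array at ZT3 or at ZT15 leaves 1 Tim-Dcr array in that fraction. Fewer members were then called higher in it. The share of all probe sets called in those fits was not taken, so the drop cannot be set against the array. Obp51a, Obp56i and Obp56a passed under all of these, while Obp22a in IP lost its call without the ZT15 array, and Obp56f and Obp56g in INPUT lost theirs without either Tim-Dcr INPUT array or without the wild-type INPUT array at ZT3, and Obp56f also without wild-type INPUT ZT15 replicate 1. Obp69a in IP lost its call without either Tim-Dcr IP array and without replicate 2 of wild-type IP at ZT3 or at ZT15. Members higher in Tim-Dcr also lost calls in some fits that left out 1 array. Among them were Obp19d, Obp44a and Obp8a in IP, and Obp19b, Obp28a, Obp44a, Obp56e and Obp57a in INPUT. Over such fits the difference of Obp44a ran from 0.37 to 0.67 in IP and from 0.48 to 0.89 in INPUT. With arrays centred on their medians, the median of all probe sets was 0.49 in IP and 0.44 in INPUT. On that scale 25 members were higher in IP (59.2% of probe sets) and 24 in INPUT (52.6%). Lower were 12.3% of probe sets in IP and 14.7% in INPUT.

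Whether Tim-Dcr changed IP minus INPUT was tested as the IP difference less the INPUT difference. By limma, 0 of 39 members passed, against 2.73% of probe sets, and 4 reached an unadjusted p under 0.05, as did 19.2% of all probe sets. Obp51a was at 1.45 (SE 0.53, adjusted p = 0.144, limma). Its ZT15 values in both Tim-Dcr fractions lay at the low end of the array, and it passed when the Tim-Dcr IP array at ZT15 was left out. A further test asked whether the Tim-Dcr difference itself changed between ZT3 and ZT15. By limma 1 of 39 members passed in IP, against 2.1% of probe sets, and 0 in INPUT, against 1.21%. The member that passed was Obp51a, described below.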

How the data were processed

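Affymetrix arrays had been summarised by the authors into log2 values, 1 per probe set and array, with GCRMA according to the submitters' processing notes. Neither a version nor which arrays were normalized as 1 set is stated in the sources used here. Of 18952 probe sets, 183 controls were left out, and 13647 of the other 18769 carried 1 gene symbol. The description of 1 array (wild-type IP, ZT3, replicate 1) names a different time from its title and time entry, which were followed. Labels call the wild-type replicates biological.

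Tests used limma 3.58.1 in R 4.3.3 with eBayes and Benjamini-Hochberg adjustment at 0.05 over all probe sets above log2 4 in at least 3 arrays: 15517 in wild type, with 12 fraction-by-time means (11 residual degrees of freedom), and 15835 with Tim-Dcr as an offset per fraction (13 residual degrees of freedom). Rhythm was an F test on a 24 h cosine and sine. IP minus INPUT, averaged over the times, used arrays centred on the median of the probe sets tested. The fits were tested on simulated data. Summaries were made with pandas 2.3.3 in Python 3.11.15 and figures with matplotlib 3.10.9.

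Deviations of same-numbered IP and INPUT arrays from their means correlated at 0.42, 0.39, 0.66, 0.43 and 0.38 from ZT7 to ZT23. The median size between times was 0.18, so the numbers in the titles were taken to pair them. The main fits did not use this pairing, and a fit with it (the replicate block) was run as an alternative. Members and lists were chosen with earlier results of these data known. Named were the 12 members with the highest INPUT means, every member past a rhythm or Tim-Dcr test, up to 10 in each direction for IP minus INPUT, and up to 4 genes of another list; others, such as members with a known site, were named after their values were seen. Alternatives covered the filter, the scaling, pairing, the rhythm model, the probe set, the wild-type times used and leaving out each array. The number of arrays limits the precision.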

Additional observations from a re-analysis of the deposited data

Results flagged for a closer look

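The Tim-Dcr difference of Obp51a was not the same at both times in IP. Tim-Dcr IP had 5.27 at ZT3 and 2.99 at ZT15, and relative to wild-type IP the differences were -2.93 at ZT3 and -5.39 at ZT15. The ZT15 value lay at the most frequent value of that array, 2.95, so the ZT15 difference, and with it the change between times, is a lower bound in size. The ZT15 difference minus the ZT3 difference was -2.47 (SE 0.41, adjusted p = 0.0032, limma), with 1 Tim-Dcr array at each time, so time and sample cannot be told apart. It was the only one of 39 members to pass that test in IP, where 2.1% of probe sets passed. In INPUT 0 members passed by limma, against 1.21% of probe sets. Obp51a was at -0.53 there. The change was not particular to Obp51a: Obp56g was at -2.16 in IP. The 24 measured genes of seminal fluid and male tract ran from -4.52 to 0.58 in IP. Their median was -0.74, and that of all probe sets was 0.09. In INPUT these genes ran from -5.17 to 0.86, with a median of -0.52, while that of all probe sets was 0.05.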

How the results depend on the processing

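No member was rhythmic in INPUT under any setting, nor was the IP rhythm unlike that of INPUT; leaving out arrays gave 0 to 1 in IP. For IP minus INPUT, leaving out each array gave 5 to 8 higher and 6 to 9 lower members. Without the filter 11 were higher. With the replicate block there were 10 higher (29.2% of probe sets) and 14 lower (38.1%). As deposited, 0 were higher (3.63% of probe sets) and 36 lower (93.1%). The 6 genes higher after centring turned negative: Obp44a -0.89, Obp49a -0.75, Obp56h -0.025 (adjusted p = 0.858, limma), Obp58c -1.09, Obp83ef -0.96 and Obp99c -0.61. The centring itself moves every value by the same amount on an array. For Tim-Dcr, leaving out arrays gave 6 to 19 higher and 4 to 6 lower in IP, 5 to 17 higher and 4 to 6 lower in INPUT, and 0 to 1 with a changed IP minus INPUT. Centring on the probe sets tested gave 25 higher in IP (59.2% of probe sets) and 24 in INPUT (52.6%). Centring on all probe sets, chosen after seeing the data, gave 25 and 26. Wild-type arrays of the matched times alone gave 8 higher in IP and 9 in INPUT, and a filter at log2 5 gave 9 higher in IP, with fewer genes tested. Where no percentage is given, the share of all probe sets called under that setting was not taken. Those counts cannot set the family against the array. The replicate block moved no Tim-Dcr count by over 1.5 times. Besides the 6 reversals, single calls kept their side of the threshold in 400 cases and lost it in 26, and under leaving out 1 array in 1345 and 108. The cause of these shifts was not tested further. Values near the most frequent array value cannot show small differences.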

Other observations

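The probe sets that name an Obp gene together with another gene were not assigned to either. One of those for Obp50b and Obp50c had INPUT means of 5.54 in Tim-Dcr and 7.04 in wild type, and the other had 5.02 in Tim-Dcr and 5.53 in wild type. Those for Obp57d and Cpr57A had 7.88 in Tim-Dcr and 7.88 in wild type, and 4.09 in Tim-Dcr and 3.76 in wild type. The second probe set of Obp59a had 3.36 in Tim-Dcr and 3.20 in wild type, below the most frequent array value. Ir75a, an ionotropic receptor of the antenna and not an Obp gene, passed the rhythm test in INPUT, with a peak-to-trough difference of 1.30 and its highest array at ZT7.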
